A study of Homo sapiens with 8 samples.

Results

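Aminoacyl-tRNA synthetases are the enzymes that join each amino acid to its transfer RNA. The genes described here were those whose annotated symbol is a single amino acid letter, or EP, followed by ARS, ARS1 or ARS2, together with FARSA and FARSB, on transcript clusters annotated to 1 gene only. This rule used no measured value and gave 30 genes, each with 1 cluster, of 14232 genes named by such clusters. The array table holds 17881 clusters in all. Of the 30 genes, 16 encode cytosolic enzymes, 12 encode mitochondrial enzymes, and GARS1 and KARS1 serve both compartments. A further 11 clusters carry a synthetase symbol beside that of another gene and were kept apart, among them the only clusters of EARS2, FARSB, SARS2, VARS2 and YARS2.

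Total RNA was measured on 8 Affymetrix Human Exon arrays, 2 in each of 4 groups. Cells labelled BTG1 shRNA were exposed for 8 h to prednisolone or to vehicle, and cells labelled control shRNA, which carry a control shRNA vector, were exposed for 8 h to prednisolone or to vehicle. All 8 arrays are labelled RS4;11, an established acute lymphoblastic leukaemia line known as a B-cell precursor line with an MLL gene fusion. Prednisolone is a synthetic glucocorticoid, and the study asked how knockdown of BTG1, a transcriptional coregulator, alters the response to it. The dose is not given in the sources used here, and the cells were transduced with shRNA vectors, which lower a transcript and do not delete its gene.

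Each compartment needs its own supply of charged transfer RNA, and the cytosolic enzymes for several amino acids, among them EPRS1, IARS1, KARS1, LARS1, MARS1, QARS1 and RARS1, assemble into the multi-synthetase complex. Uncharged transfer RNA activates the kinase GCN2, which phosphorylates eIF2 and thereby raises translation of the transcription factor ATF4. ATF4 binds amino acid response elements and is known to activate many genes of amino acid import, amino acid synthesis and tRNA charging, including cytosolic synthetase genes. Of the 30 genes, 12 were listed as known ATF4 targets: AARS1, CARS1, EPRS1, GARS1, IARS1, LARS1, MARS1, NARS1, SARS1, TARS1, WARS1 and YARS1. The other 18 comprised all 12 mitochondrial genes and FARSA, HARS1, KARS1, QARS1, RARS1 and VARS1.

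The core of the amino acid response element, TGATGNAA on either strand, was found in 7 of the 26 synthetase genes with a RefSeq promoter entry (26.9%). It occurred in 3.62% of all 35116 RefSeq promoters and in 4.46% of the genes they belong to. The search covered 250 bases before to 50 bases after the annotated start of a gene, in GRCh38.p14. The 7 genes were AARS1, CARS1, GARS1, IARS1, MARS1, NARS1 and TARS1, all on the list of known ATF4 targets. The stretches around the matches are shown because these genes recur in the prednisolone comparisons. Each is written 5′ to 3′ on the strand of its gene, with the match in capitals. In 6 genes the match lies on the opposite strand of the gene and reads TTGCATCA, or TTTCATCA in GARS1, and in NARS1 it lies on the gene's own strand.
AARS1, chr16:70289656-70289723, minus strand: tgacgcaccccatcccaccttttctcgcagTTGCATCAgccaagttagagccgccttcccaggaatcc
CARS1, chr11:3057388-3057455, minus strand: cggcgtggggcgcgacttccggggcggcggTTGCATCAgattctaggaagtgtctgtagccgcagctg
GARS1, chr7:30594815-30594882, plus strand: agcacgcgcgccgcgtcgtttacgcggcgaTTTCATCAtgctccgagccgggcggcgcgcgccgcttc
IARS1, chr9:92293673-92293740, minus strand: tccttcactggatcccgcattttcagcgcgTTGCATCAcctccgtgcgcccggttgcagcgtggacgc
MARS1, chr12:57488034-57488101, plus strand: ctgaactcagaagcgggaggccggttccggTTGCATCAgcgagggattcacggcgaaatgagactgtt
NARS1, chr18:57621787-57621852, minus strand: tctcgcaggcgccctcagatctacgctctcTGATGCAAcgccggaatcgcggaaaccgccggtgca
TARS1, chr5:33440937-33441004, plus strand: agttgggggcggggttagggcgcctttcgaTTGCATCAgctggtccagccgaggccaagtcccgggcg

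Counted from the annotated start, the first base of the match lay at -187 in AARS1, at -33 in GARS1 and at -13 in IARS1. It lay at -4 in MARS1, at -2 in CARS1, at 3 in TARS1 and at 15 in NARS1, so that in these 4 genes the match touches or follows the start. Other motifs were searched in the same windows on both strands. The E-box CACGTG was found in 3 of the 26 genes (11.5%), CARS2, IARS1 and MARS2. It occurred in 7.26% of all promoters and in 8.77% of the genes they belong to. The ETS core CCGGAAGT was found in 7 of 26, CARS1, HARS1, HARS2, NARS1, PARS2, TARS1 and WARS1. It occurred in 4.14% of all promoters and in 4.95% of the genes they belong to. HARS1 and HARS2 lie head to head and share 184 bases of these windows, so they are not independent entries in this count. The palindromic glucocorticoid response element, in its full consensus form, was found in 0 of 26 and in 1 promoter of the whole table. A match is a description of these letters in this window and was not tested for binding.

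Facts that bear on every comparison come first. The targeted gene, on a cluster annotated to BTG1 and LINC01619, had log2 levels of 8.14 and 7.80 on the BTG1-labelled prednisolone arrays, against 10.51 and 10.7 on the control-labelled ones. It had 7.15 and 7.42 on the BTG1-labelled vehicle arrays, against 9.34 and 9.36 on the control-labelled ones. The BTG1-labelled arrays went against the labelled cell line. The log2 of the summed level of 10 B-lineage markers was 7.32 to 7.57 on the 4 BTG1-labelled arrays, against 13.25 to 13.52 on the 4 control-labelled arrays. The same sum over 11 T-lineage markers was 13.32 to 13.62 on the BTG1-labelled arrays, against 8.83 to 9.76 on the control-labelled arrays. All 10 B-lineage markers lay lower on the BTG1-labelled arrays under both exposures. At a limma adjusted p below 0.05, 10 passed as lower under vehicle and 9 under prednisolone, against 6.21% and 7.51% of all clusters. Of 11 T-lineage markers, 10 lay higher under vehicle and 11 under prednisolone. Under each exposure 10 passed as higher, against 8.46% of all clusters under vehicle and 10.0% under prednisolone. In every comparison between the shRNAs, the shRNA and this difference in lineage profile cannot be told apart, and no such comparison can be made without these arrays. The prednisolone comparisons lie within the arrays of one shRNA label. TSC22D3, a classical glucocorticoid target, had 5.31 and 5.14 with prednisolone on the BTG1-labelled arrays, against 4.29 and 4.18 with vehicle. On the control-labelled arrays it had 9.51 and 9.43 with prednisolone, against 6.79 and 6.81 with vehicle. The summed level of 6 myeloid markers was 7.07 to 7.67 on the BTG1-labelled arrays, against 7.08 to 8.27 on the control-labelled ones, and that of 7 stromal and epithelial markers 10.81 to 11.43, against 11.12 to 11.72. The interquartile range of the control-labelled vehicle array 1 was 2.95, against 3.39 to 3.80 on the other 7 arrays.

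All 30 synthetase genes had a mean level above that of the median cluster, which was 5.32. The means over 8 arrays ran from 5.67 for WARS2, the mitochondrial tryptophan enzyme, to 10.54 for IARS1, the cytosolic isoleucine enzyme. IARS1 had 10.61 and 10.79 with BTG1 shRNA and prednisolone, 10.31 and 10.77 with BTG1 shRNA and vehicle, 10.59 and 10.6 with control shRNA and prednisolone, and 10.03 and 10.6 with control shRNA and vehicle. WARS2 had 4.58 and 5.56, 5.64 and 5.59, 5.9 and 6.79, and 5.3 and 6.01 in the same groups and order. IARS1 was lowest on the control-labelled vehicle array 1, and WARS2 on the BTG1-labelled prednisolone array 1. Different clusters rest on different probes, so levels are compared here across arrays and not across genes. On every array 29 of the 30 genes lay above that array's median cluster, and WARS2 was the exception, at the 38.4th percentile on its lowest array.

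**Figure D1:**
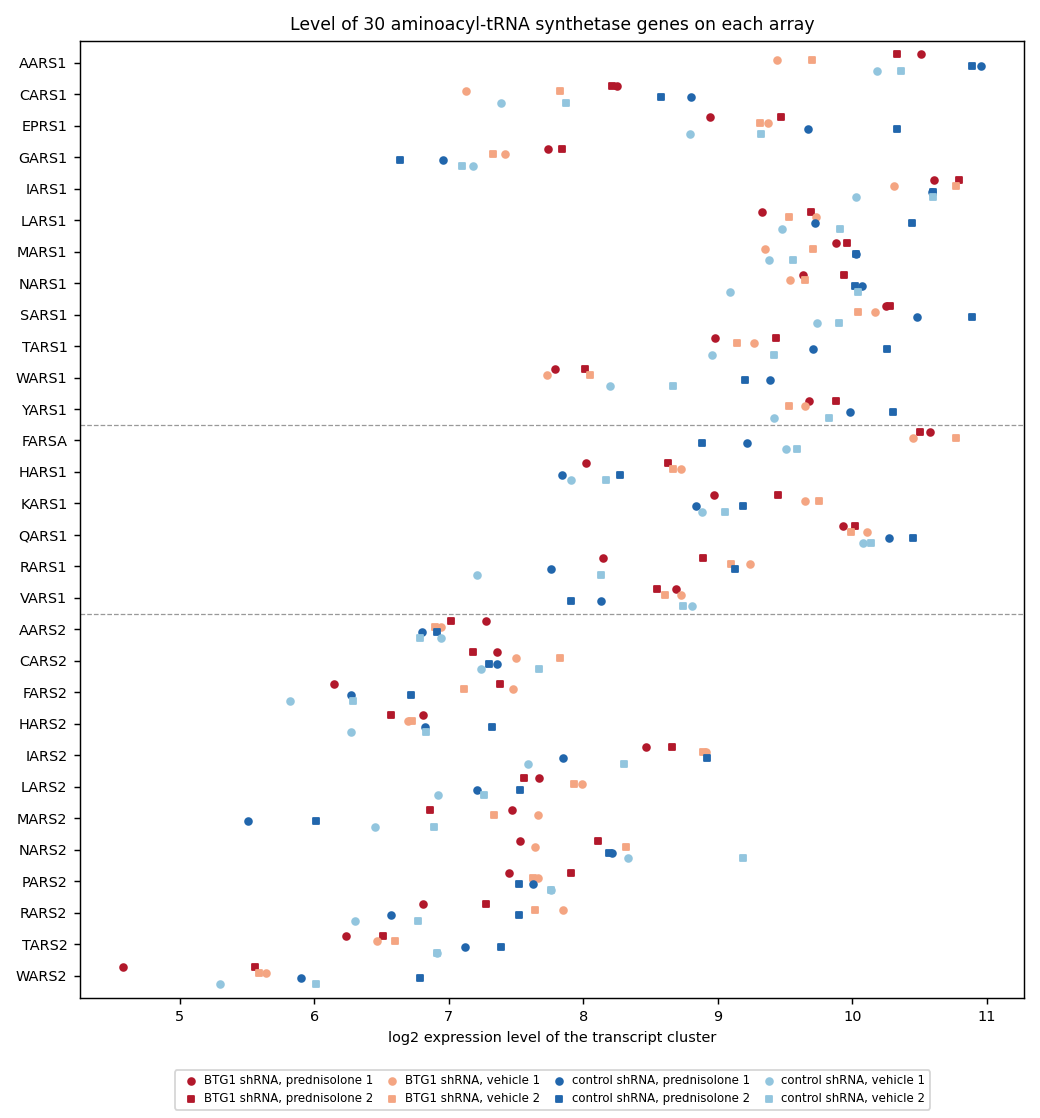
Log2 level of each of the 30 synthetase genes (x axis) on each of the 8 arrays, with genes down the page in 3 blocks set apart by dashed lines: known ATF4 targets, the other cytosolic and dual enzymes, and the mitochondrial enzymes. Colour gives the group and shape the replicate. FARSA separates the 4 BTG1-labelled arrays (10.45 to 10.77) from the 4 control-labelled arrays (8.88 to 9.59).

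Prednisolone in the control-labelled arrays gave positive differences for 14 of 16 cytosolic synthetase genes, but no single gene passed the test. Differences are prednisolone minus vehicle on the log2 scale, from a limma model of all 8 arrays with adjusted p-values over all 17881 clusters and a threshold of 0.05. In the control-labelled arrays 0 of 30 synthetase genes passed, against 1.52% of all clusters, and 11 had an unadjusted p below 0.05, against 14.1%. The difference was positive for 22 genes and negative for 8, with a median of 0.41. Over all clusters 33.7% were positive and the median was -0.16. After quantile normalization the median of all clusters moved to -0.05 and that of the synthetase genes to 0.27, so that the distance between them fell to 0.32, against 0.57 without it. In a bulk measurement of this kind, a lower level in each cell and fewer cells with the level cannot be told apart.

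Of the known ATF4 targets, 11 of 12 had a positive difference, with a median of 0.61, and the exception was GARS1, the glycine enzyme of both compartments. Of the other 18 genes, 11 had a positive difference, with a median of 0.15. In 8 of the 12 ATF4 targets both prednisolone arrays lay above both vehicle arrays, which held for 15.3% of all clusters. The reverse, with both prednisolone arrays below both vehicle arrays, held for GARS1 among them and for 26.4% of all clusters. All 7 genes of the multi-synthetase complex had a positive difference, from 0.05 for KARS1 to 0.94 for EPRS1.

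SARS1, the cytosolic serine enzyme, had the smallest adjusted p of the 30 genes in this comparison. Its level was 10.48 and 10.89 on the control-labelled prednisolone arrays, against 9.74 and 9.9 on the vehicle arrays, a difference of 0.86 (SE 0.20, adjusted p = 0.101). The arrays did not overlap, and the difference did not pass. CARS1, the cytosolic cysteine enzyme, had 8.8 and 8.58 with prednisolone, against 7.39 and 7.87 with vehicle. This was the largest positive difference of the 30, 1.06 (SE 0.28, adjusted p = 0.14). EPRS1, which charges both glutamic acid and proline, had a difference of 0.94 and adjusted p of 0.229, and WARS1, the cytosolic tryptophan enzyme, had a difference of 0.86 and adjusted p of 0.147. AARS1, the cytosolic alanine enzyme, had 10.96 and 10.89 with prednisolone, against 10.18 and 10.36 with vehicle, a difference of 0.66 (adjusted p = 0.167).

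A few synthetase genes lay lower with prednisolone in the same arrays. VARS1, the cytosolic valine enzyme, had 8.13 and 7.91 with prednisolone, against 8.81 and 8.74 with vehicle, a difference of -0.76 (SE 0.18, adjusted p = 0.104). MARS2, the mitochondrial methionine enzyme, had 5.51 and 6.01 with prednisolone, against 6.45 and 6.89 with vehicle, a difference of -0.91 (SE 0.29, adjusted p = 0.231). Neither gene had overlapping arrays, and neither passed. The difference was -0.50 for FARSA, the catalytic subunit of the cytosolic phenylalanine enzyme, and -0.34 for GARS1. With the replicate number as a block, SARS1 and VARS1 passed and the share over all clusters was 4.22%.

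The size of these differences moved with single arrays. The median over the 30 genes was 0.41 with all arrays, 0.19 without the control-labelled vehicle array 1 and 0.63 without vehicle array 2. It was 0.52 without prednisolone array 1 and 0.14 without prednisolone array 2. On the control-labelled vehicle array 1, 27 of 30 synthetase genes lay below vehicle array 2, while 38.8% of all clusters did. On the control-labelled prednisolone array 1, 20 of 30 genes lay below prednisolone array 2, against 35.3% of all clusters. For the ATF4 targets the count of positive differences stayed at 10 or 11 of 12 and the median between 0.46 and 0.84 over all alternatives with all 12 genes. For the other 18 genes it ran from 8 to 12, and the median from -0.08 to 0.29. The part of array quality in these sizes was not tested.

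**Figure D2:**
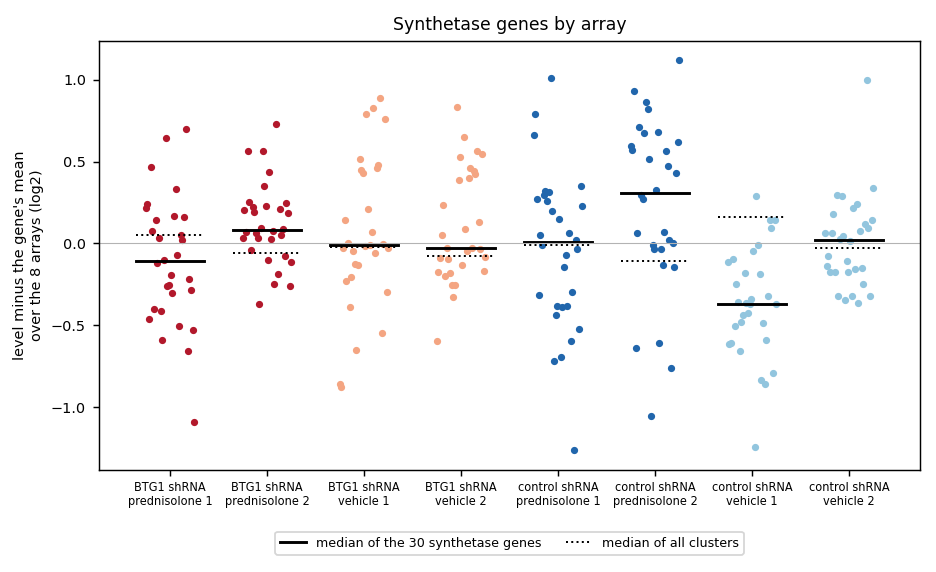
Level of each synthetase gene minus that gene's mean over the 8 arrays (y axis, log2), by array. Each point is 1 gene, the solid line is the median of the 30 genes and the dotted line the median of all clusters. The 30 genes lie lowest on the control-labelled vehicle array 1, with a median of -0.37 against 0.16 for all clusters there, and highest on the control-labelled prednisolone array 2, with 0.31 against -0.11.

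Prednisolone in the BTG1-labelled arrays gave mostly positive differences among the known ATF4 targets and mostly negative ones among the other genes. No gene passed: 0 of 30 synthetase genes, against 0.0% of all 17881 clusters, and 2 of 30 had an unadjusted p below 0.05, against 1.04%. All adjusted p-values were 1. The known ATF4 targets had a positive difference in 10 of 12 genes, with TARS1 at 0.00 counted among them, and a median of 0.18, while the other genes had a negative difference in 16 of 18, with a median of -0.34. The median over all clusters was 0.03, and 58.1% of them were positive. In 6 of the 12 ATF4 targets both prednisolone arrays lay above both vehicle arrays, against 18.0% of all clusters. In 8 of the other 18 genes both lay below, against 10.5%. Over all alternatives with every gene, 8 to 12 of the 12 ATF4 targets and 1 to 6 of the other 18 were positive. The median of the ATF4 targets was 0.08 without the BTG1-labelled prednisolone array 2, and that of the other genes -0.12 without the BTG1-labelled prednisolone array 1. The median over all 30 was -0.07 with all arrays, 0.07 without prednisolone array 1 and -0.16 without prednisolone array 2.

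AARS1 had the largest difference of the 30 genes here. Its level was 10.51 and 10.33 with prednisolone, against 9.44 and 9.7 with vehicle, a difference of 0.85 (SE 0.18), the equivalent of 1.80-fold. CARS1 had 8.25 and 8.21 with prednisolone, against 7.13 and 7.83 with vehicle, a difference of 0.75 (SE 0.28). In both genes the arrays did not overlap, as in the control-labelled arrays. GARS1 had 7.74 and 7.84 with prednisolone, against 7.42 and 7.33 with vehicle, a difference of 0.41, which is opposite in sign to its difference of -0.34 in the control-labelled arrays. MARS1, the cytosolic methionine enzyme, had a difference of 0.39. The mitochondrial genes were mostly below 0, with 10 of 12 negative, and the lowest was RARS2, the mitochondrial arginine enzyme, at -0.70.

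The prednisolone comparisons in the BTG1-labelled and in the control-labelled arrays share no array. In 9 of the 12 known ATF4 targets, TARS1 included, the difference was positive in both, and in 0 of the other 18 genes. Over all clusters this held for 11.8%. Both prednisolone arrays lay above both vehicle arrays under both labels for AARS1, CARS1, MARS1, SARS1 and YARS1, the last being the cytosolic tyrosine enzyme. These are 5 of 30 genes, or 16.7%, against 350 of 17881 clusters, or 1.96%. No synthetase gene had the reverse under both labels, which held for 409 of 17881 clusters and is thus rare in the background as well. Of the 7 genes with the response element core shown above, 6 were positive under both labels, the exception being GARS1. All 7 are among the 12 known ATF4 targets, so this count repeats values given before. The lists and motifs were chosen with earlier results of these data known. In the BTG1-labelled arrays these 7 had a median of 0.39, which was 0.21 without the BTG1-labelled vehicle array 1. The 19 genes whose promoter windows lacked the core had a median of -0.33 and 3 positive values, and the median was -0.07 without the BTG1-labelled prednisolone array 1. TARS1, the cytosolic threonine enzyme, was at 0.00 there and is counted as positive by a margin below rounding, with 8.98 and 9.43 with prednisolone against 9.27 and 9.14 with vehicle. In the control-labelled arrays the medians were 0.56 for the 7 genes and 0.34 for the 19, which became 0.21 without vehicle array 1 and 0.09 without prednisolone array 2.

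**Figure D3:**
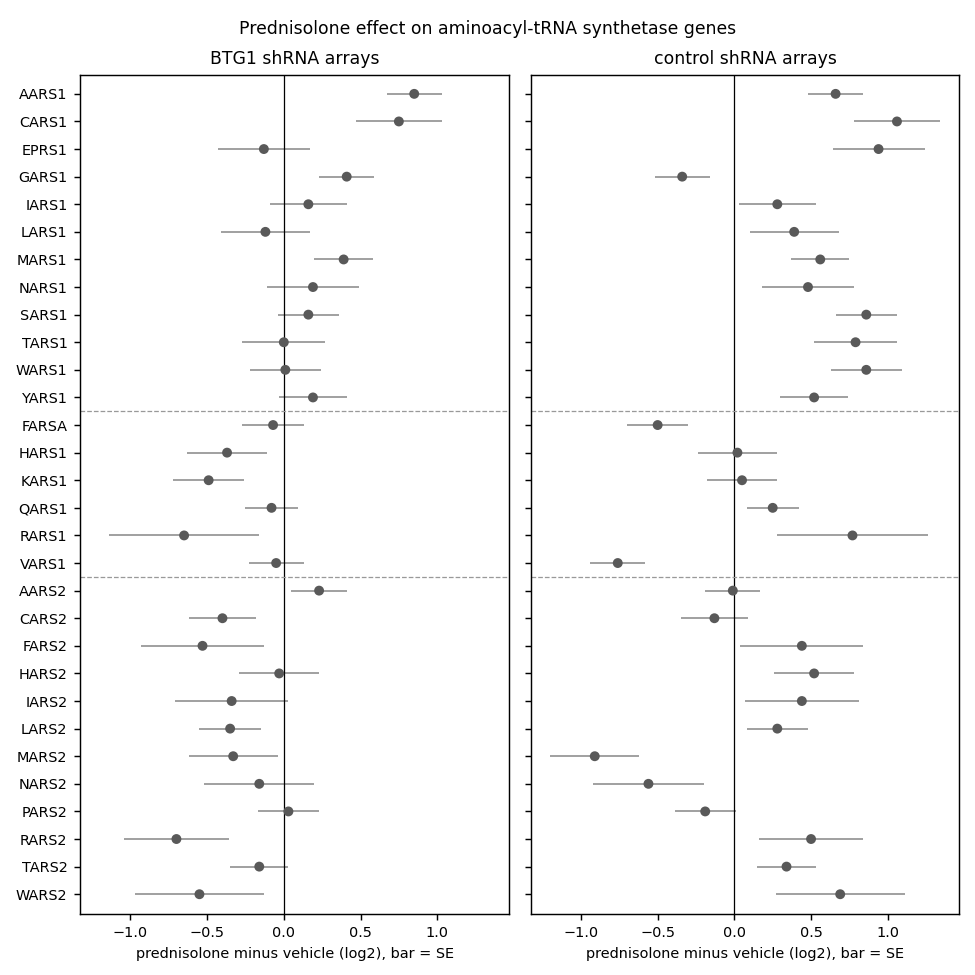
Prednisolone minus vehicle (x axis, log2) for each synthetase gene in the BTG1-labelled arrays (left) and the control-labelled arrays (right). Points are limma estimates, bars are 1 SE, and the dashed lines set apart known ATF4 targets, other cytosolic and dual enzymes, and mitochondrial enzymes. No gene passed on either side; of the ATF4 targets, 10 of 12 are at or above 0 on the left, with TARS1 at 0.00, and 11 of 12 are above 0 on the right.

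The test of the difference between both prednisolone effects, BTG1-labelled minus control-labelled, called 0 of 30 synthetase genes, against 0.134% of all clusters (0.028% higher and 0.106% lower). An unadjusted p below 0.05 was seen for 6 of them, against 9.31% of all clusters. The estimate was negative for 22 genes and positive for 8, against 65.2% positive over all clusters, with a median of -0.36 against 0.20 over all clusters. After quantile normalization these medians were -0.11 and 0.06. All 7 genes of the multi-synthetase complex were negative, from -0.13 for IARS1 to -1.43 for RARS1, the cytosolic arginine enzyme. GARS1 had the smallest adjusted p, with an estimate of 0.75 (SE 0.26, adjusted p = 0.495). The p-values that missed the threshold do not show that the responses were alike.

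Under prednisolone, 5 synthetase genes differed between the BTG1-labelled and the control-labelled arrays. FARSA, MARS2 and GARS1 were higher, and WARS1 and TARS2 were lower. These 5 of 30 are 16.7%, against 17.5% of all clusters (10.0% higher and 7.51% lower), a share near the background. An unadjusted p below 0.05 was seen for 10 genes, against 27.4%. The estimates over the 30 genes had a median of -0.08, against 0.04 over all clusters, and 14 were positive, against 57.9% of all clusters. The median was -0.35 without the control-labelled prednisolone array 1 and -0.28 without the BTG1-labelled prednisolone array 2, with 11 and 9 genes positive.

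FARSA had 10.58 and 10.5 on the BTG1-labelled prednisolone arrays, against 9.22 and 8.88 on the control-labelled ones, a difference of 1.49 (SE 0.20, adjusted p = 0.00181) or 2.81-fold. Its partner subunit FARSB was measured only on a cluster shared with TRIM61, where the difference was 0.18 (adjusted p = 0.977). MARS2 had 7.47 and 6.86 on the BTG1-labelled arrays, against 5.51 and 6.01, a difference of 1.41 (SE 0.29, adjusted p = 0.0139). GARS1 had 7.74 and 7.84, against 6.96 and 6.64, a difference of 0.99 (SE 0.18, adjusted p = 0.00822). The arrays of the labels did not overlap for any of these genes. WARS1, which is also known as an interferon gamma target, had 7.79 and 8.01 on the BTG1-labelled arrays, against 9.39 and 9.2, a difference of -1.39 (SE 0.23, adjusted p = 0.00471) or 2.63-fold lower. TARS2, the mitochondrial threonine enzyme, had 6.24 and 6.51, against 7.12 and 7.39, a difference of -0.88 (SE 0.19, adjusted p = 0.0165). MARS2 lost its call without the BTG1-labelled prednisolone array 1 or the control-labelled prednisolone array 1 (adjusted p = 0.0944 and 0.0839), and so did GARS1 without either array 2 of those groups (adjusted p = 0.0616 and 0.0779). TARS2 lost it without the BTG1-labelled array 1 or the control-labelled array 2 (adjusted p = 0.124 and 0.135).

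The ATF4 targets as a list lay lower on the BTG1-labelled prednisolone arrays. In 10 of 12 both BTG1-labelled arrays were below both control-labelled arrays, against 21.5% of all clusters, and in GARS1 and IARS1 both were above, against 28.4%. The median over the 12 was -0.44, and -0.25 without the control-labelled prednisolone array 2. The comparison shares its control-labelled prednisolone arrays with the prednisolone comparison above, in which those arrays stood high. WARS2 had 4.58 and 5.56 on the BTG1-labelled arrays, against 5.9 and 6.79, a difference of -1.27 (SE 0.42) that did not pass (adjusted p = 0.083). It passed with the replicate block (adjusted p = 0.0117), with dim clusters left out (0.0385) and without the BTG1-labelled prednisolone array 2 (0.0498).

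Under vehicle, 3 synthetase genes differed between the labels. FARSA and LARS2 were higher on the BTG1-labelled arrays and AARS1 was lower. These are 3 of 30 genes, against 14.7% of all clusters (8.46% higher and 6.21% lower), and 11 genes had an unadjusted p below 0.05, against 28.1%. The estimates had a median of 0.12, against -0.15 over all clusters, and 19 were positive, against 39.3% of all clusters. After quantile normalization the medians were 0.01 and -0.04. The median over the 30 genes was -0.04 without the control-labelled vehicle array 1, 0.34 without the control-labelled vehicle array 2, and 0.19 and 0.06 without the BTG1-labelled vehicle arrays 1 and 2.

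FARSA had 10.45 and 10.77 on the BTG1-labelled vehicle arrays, against 9.51 and 9.59 on the control-labelled ones, a difference of 1.06 (SE 0.20, adjusted p = 0.0108) or 2.08-fold. LARS2, the mitochondrial leucine enzyme, had 7.99 and 7.93, against 6.92 and 7.26, a difference of 0.87 (SE 0.20, adjusted p = 0.0255). AARS1 had 9.44 and 9.7, against 10.18 and 10.36, a difference of -0.70 (SE 0.18, adjusted p = 0.0429). The labels did not overlap in any of the 3 genes. The AARS1 call was lost in all 8 fits that left out an array (adjusted p = 0.0534 to 0.264). The FARSA call was lost without the BTG1-labelled vehicle array 2 (adjusted p = 0.112), and the LARS2 call in 3 of 8 such fits, those without either BTG1-labelled vehicle array or without the control-labelled vehicle array 1 (adjusted p = 0.0857 to 0.152). Centring, array weights and a fit of the compared groups alone also ended the LARS2 call (adjusted p = 0.054 to 0.0839) and the AARS1 call (adjusted p = 0.08 to 0.147). AARS1 further lost its call with an intensity trend and with dim clusters left out (adjusted p = 0.0557 and 0.0755).

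The largest differences under vehicle did not pass in the fit reported here. RARS1 had 9.24 and 9.1 on the BTG1-labelled arrays, against 7.21 and 8.13 on the control-labelled ones, a difference of 1.50 (SE 0.49, adjusted p = 0.091). FARS2, the mitochondrial phenylalanine enzyme, had 7.48 and 7.11, against 5.82 and 6.29, a difference of 1.24 (SE 0.40, adjusted p = 0.0869). In both genes the arrays did not overlap. Both passed with the replicate number as a block (adjusted p = 0.017 for RARS1 and 0.0352 for FARS2), in the fit of the compared groups alone (0.0438 and 0.0419) and with dim clusters left out (0.0377 and 0.0434). In all, 11 genes had both BTG1-labelled arrays above both control-labelled arrays, against 24.5% of all clusters, and 6 had both below, against 34.3%. FARSA was the 1 gene of the 30 that passed under both exposures.

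**Figure D4:**
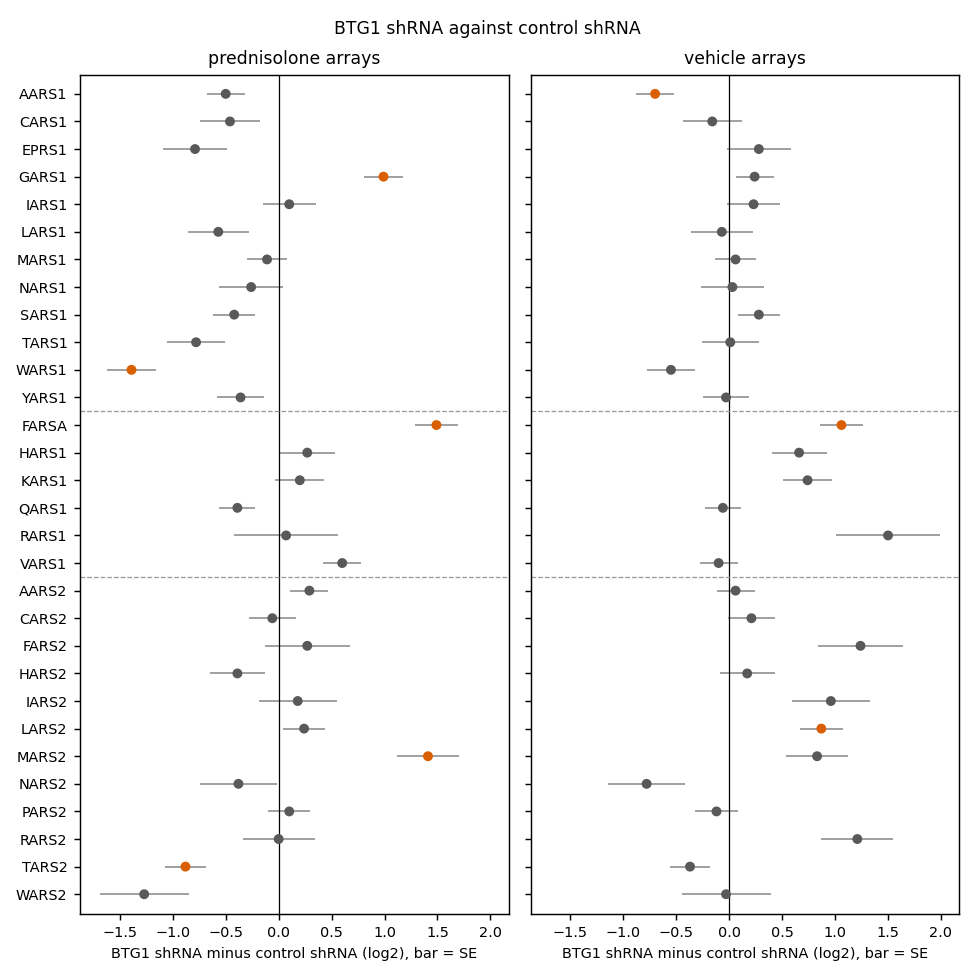
BTG1-labelled minus control-labelled arrays (x axis, log2) for each synthetase gene, under prednisolone (left) and under vehicle (right). Points are limma estimates, bars are 1 SE, and orange points passed the threshold of 0.05; dashed lines set apart the 3 blocks of genes. Under prednisolone 5 genes passed and under vehicle 3, with FARSA in both.

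**Figure D5:**
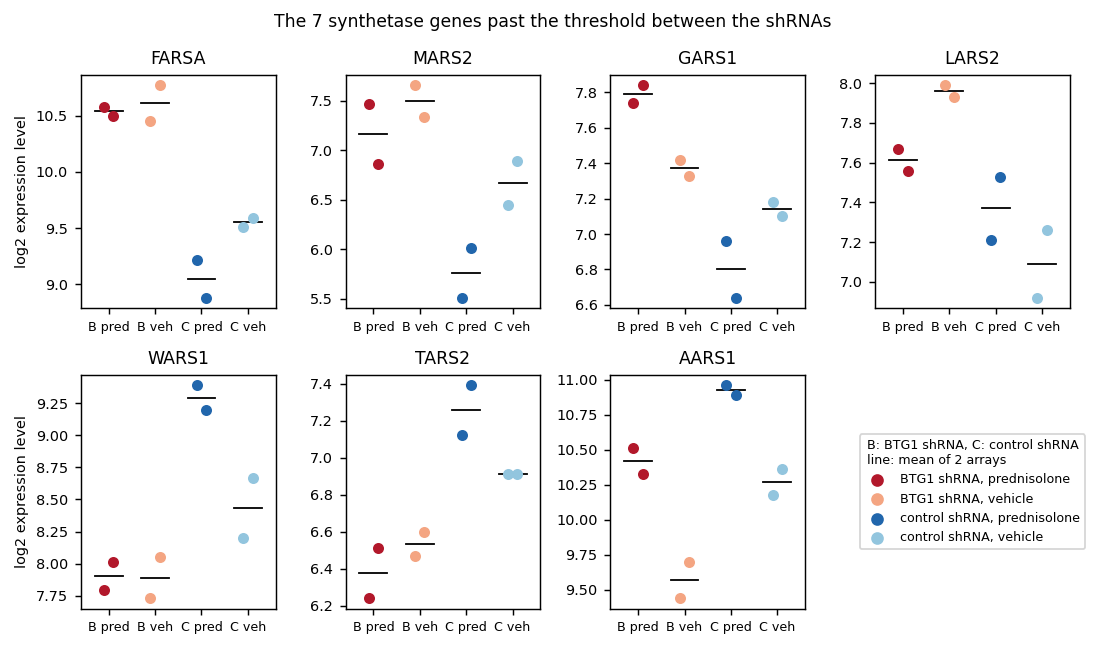
Log2 level (y axis, own range in each panel) of the 7 synthetase genes that passed between the shRNA labels in 1 or both exposures, by group. Points are arrays and the line is the mean of 2. FARSA lies higher in both BTG1-labelled groups, and WARS1 reaches 9.39 and 9.2 in the control-labelled prednisolone arrays and 8.67 or less on all others.

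Other genes of tRNA charging were measured as partners, 12 of the 17 listed. In the control-labelled arrays 1 of 12 passed as higher with prednisolone and 0 as lower, against 0.928% and 0.587% of all clusters. It was TARS3, a threonine enzyme gene whose symbol falls outside the naming rule. TARS3 had 8.29 and 8.37 with prednisolone, against 6.01 and 6.85 with vehicle, a difference of 1.90 (SE 0.30, adjusted p = 0.0288). In the BTG1-labelled arrays it had 5.2 and 5.22 with prednisolone, against 5.11 and 5.63 with vehicle, and 0 of 12 passed. Its estimate for the difference between these effects was -2.06 and did not pass (adjusted p = 0.193). Between the labels 4 of 12 passed under prednisolone, against 17.5% of all clusters, and 2 of 12 under vehicle, against 14.7%. Under prednisolone DTD1, which clears D-amino acids from tRNA, was higher by 1.23, as were AARSD1, an editing protein for mischarged alanine tRNA, by 0.99, and GATC, a subunit of the mitochondrial glutaminyl-tRNA amidotransferase, by 0.91. TARS3 was lower there (difference -3.12, adjusted p = 0.000346). Under vehicle DTD1 and GATB, another amidotransferase subunit, were higher, by 0.88 and 0.74. XPOT, the exporter of tRNA from the nucleus, had differences of 0.50 and 0.58 with prednisolone in the BTG1-labelled and control-labelled arrays, neither past the threshold.

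The wider ATF4 response was read from 24 measured genes of 26 listed, none of them a synthetase. With prednisolone in the control-labelled arrays 4 of 24 passed as higher and 0 as lower, against 0.928% and 0.587% of all clusters. These were SLC7A11, the cystine transporter (difference 2.99, adjusted p = 0.0126), DDIT4, an inhibitor of mTORC1 (difference 2.46, adjusted p = 0.00921), DDIT3, the transcription factor CHOP (difference 1.77, adjusted p = 0.00678), and SESN2, a leucine sensor (difference 1.17, adjusted p = 0.0288). The median over the 24 genes was 0.45, with 20 positive and 4 negative. In the BTG1-labelled arrays it was 0.47 and 0 of 24 passed, though SLC7A11 had 7.28 and 7.18 with prednisolone, against 4.35 and 4.66 with vehicle. ATF4 itself, which is controlled largely at translation, had a transcript difference of 0.04 in the BTG1-labelled arrays and of -0.55 in the control-labelled arrays, neither past the threshold. ASNS, the asparagine synthetase, had prednisolone differences of 0.24 in the BTG1-labelled and -0.12 in the control-labelled arrays, neither past the threshold. Between the labels ASNS had 7.29 and 8.07 on the BTG1-labelled prednisolone arrays, against 5.51 and 5.52 on the control-labelled ones, a difference of 2.17 (adjusted p = 0.00181). Of the 24 genes, 10 had a positive difference between the labels under prednisolone and 7 under vehicle. ASNS was the 1 gene that passed as higher under each exposure, against 10.0% and 8.46% of all clusters. Between the labels under prednisolone 6 of the 24 passed as lower, against 7.51% of all clusters, among them DDIT3 (-2.05) and ATF5 (-1.49). Under vehicle 3 of the 24 passed as lower, against 6.21% of all clusters: VLDLR (-2.22), SLC7A11 (-1.74) and ATF5 (-1.16).

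For the kinases and subunits around eIF2, 16 of 17 listed genes were measured. With prednisolone 0 passed in the BTG1-labelled or the control-labelled arrays, against 0.0% and 1.52% of all clusters. Between the labels 12.5% of the 16 passed under prednisolone, against 17.5% of all clusters, and 18.8% under vehicle, against 14.7%. EIF2AK4, the kinase GCN2, had differences of -0.40 and -0.03 with prednisolone in the BTG1-labelled and control-labelled arrays. Between the labels EIF2S3, the gamma subunit of eIF2, was lower on the BTG1-labelled arrays under both exposures, by a difference of -1.18 under prednisolone and -1.03 under vehicle. EIF2AK1, the haem-regulated eIF2 kinase, was higher under vehicle by 1.22, and EIF2B2, a subunit of the exchange factor eIF2B, by 0.69. PPP1R15A, which directs eIF2 dephosphorylation, was lower on the BTG1-labelled than on the control-labelled prednisolone arrays (-0.75). Its differences with prednisolone were 0.36 in the BTG1-labelled and 0.79 in the control-labelled arrays, neither past the threshold.

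Interferon gamma targets were listed because WARS1 is one, and 6 of 10 were measured. With prednisolone in the control-labelled arrays 1 of 6 passed as higher, against 0.928% of all clusters: TAP1, the peptide transporter (difference 1.16, adjusted p = 0.0491). Of the 6 genes, 2 had a positive and 4 a negative difference there, with a median of -0.09. Between the labels under prednisolone 3 of 6 passed as lower, against 7.51% of all clusters. These were CIITA, TAP1 and PSMB8, with differences of -2.91, -0.91 and -1.01, and under vehicle CIITA was lower (-3.97). CIITA, which drives MHC class II genes, is itself a gene of the B lineage, whose markers were low on the same arrays, and the part of lineage in the WARS1 difference was not tested. Of 10 measured genes of mitochondrial translation, 0 passed with prednisolone in the BTG1-labelled or the control-labelled arrays, against 0.0% and 1.52% of all clusters. Between the labels 0 of 10 passed under vehicle, against 14.7% of all clusters, and 1 of 10 under prednisolone, against 17.5%. MRPS7, a mitochondrial ribosomal protein, was higher by 0.86 between the labels under prednisolone (adjusted p = 0.0308).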

How the data were processed

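The deposited table holds 1 number for each transcript cluster and array. Per the labels, biotin-labelled RNA was hybridised and signals were summarised to core transcript clusters with hg18-based array files. Per the submitters' processing notes, RMA and Partek were used, in versions not given in these sources. The authors' deposited values are log2 expression levels in which most decimal points were lost, so they were entered as a score: of 143048 values 153 kept a point. Points were restored behind the leading digit, or behind 2 digits in the 2831 values that began with 1, and arrays correlated at 0.872 to 0.995, against 0.446 to 0.587 before. The planned tests had assumed log2 values with their points and were run on the restored ones. No further normalization or filter was applied, and 0 columns were left out.

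A model of 4 group means was fitted to all 17881 clusters in R 4.3.3 using lmFit and eBayes of limma 3.58.1, which had 4 residual degrees of freedom and added 3.51 from the prior, with Benjamini-Hochberg adjustment over all clusters at 0.05. The fit was tested on simulated data with normal noise. Of 17881 clusters, 67 were changed there by a log2 of 1, 67 by 2 and 66 by 4. The fit recovered 23.9% to 35.8% of log2 changes of 1 in the comparisons of 2 groups, and 3.0% for the difference of effects. Of log2 changes of 2 it recovered 68.7% to 80.6% and 37.3%. A gene that missed the threshold is thus not shown to be unchanged. In the measured data many more clusters passed between the labels, 17.5% under prednisolone and 14.7% under vehicle. The recovered shares need not hold for those comparisons. Of the clusters, the platform annotation gives 14432 a single symbol, 2408 several and 1041 none. Promoter sequences are from RefSeq, GRCh38.p14, and 26 of the 30 genes matched. Per-array values were given for genes past the threshold, for the 3 largest differences among the rest and for the genes of lowest and highest level. Values of SARS1, CARS1, VARS1 and TARS1, and of other genes below the threshold, were chosen after they were seen. The synthetase genes, the gene lists and the motifs were chosen with earlier results of these data known. The labels do not say whether the arrays come from separate cultures, so p-values measure the spread between arrays, which may be technical, and 2 arrays a group limit the precision. Alternatives were quantile normalization, centring, fits of the compared groups alone, the replicate number as a block, array weights, an intensity trend, filters on dim clusters and on values beginning with 1, the mean of a gene's clusters, and leaving out each array.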

Additional observations from a re-analysis of the deposited data

Results flagged for a closer look

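Clusters annotated to a synthetase and another gene stayed outside the 30 genes, and 4 of these 11 clusters passed the threshold in at least 1 comparison. Of all clusters 17.5% passed between the labels under prednisolone, 14.7% under vehicle, and 1.52% with prednisolone in the control-labelled arrays. The share of all clusters that passed in at least 1 comparison is not given here, so the count of 4 is not read as a result. Which of the annotated genes carries the signal was not tested. The cluster of GTF2H4 and VARS2, the mitochondrial valine enzyme, was higher on the BTG1-labelled arrays by 0.97 under prednisolone (adjusted p = 0.00569) and by 0.83 under vehicle (adjusted p = 0.0137). A cluster of SARS2, the mitochondrial serine enzyme, and MRPS12, its neighbour, was higher by 1.17 under prednisolone and by 0.95 under vehicle. A second cluster of MRPS12 and SARS2 had a difference of -1.16 with prednisolone in the control-labelled arrays (adjusted p = 0.0461). It had 5.85 and 5.36 there with prednisolone, against 6.80 and 6.73 with vehicle, and was higher by 1.11 on the BTG1-labelled than on the control-labelled prednisolone arrays. The cluster of S100PBP and YARS1 was higher by 1.20 on the BTG1-labelled vehicle arrays (adjusted p = 0.0346), where the cluster of YARS1 alone differed by -0.03.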

How the results depend on the processing

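The differences of genes past the threshold, and of RARS1, FARS2 and WARS2, kept their direction in every setting. Medians and counts of positive genes did not. In the BTG1-labelled prednisolone comparison the median over the 30 genes was -0.07, with 12 positive. It was 0.01 with quantile normalization and 0.07 without prednisolone array 1, each with 16 positive. Between the labels under vehicle it was 0.12 with 19 positive, and -0.04 with 13 positive without the control-labelled vehicle array 1. Between the labels under prednisolone it was -0.08, and 0.1 over the 19 genes left without clusters holding a value that begins with 1. For the 18 genes outside the ATF4 list in the control-labelled prednisolone comparison it was 0.15 with 11 positive, and -0.08 with 8 positive without prednisolone array 2. With prednisolone, 0 of 30 synthetase genes passed in the BTG1-labelled arrays, and 0 for the difference of effects, under all settings run; fits of the compared groups alone were not run for that difference. In the control-labelled arrays 0 passed, and 2 with the replicate number as a block, SARS1 and VARS1. Between the labels under vehicle the count of 3 became 10 with the block, 5 with dim clusters left out, 4 with quantile normalization (2 higher, 2 lower), and 1 with centring, with array weights, or without clusters holding a value that begins with 1, which left 19 of the genes. Leaving out single arrays gave 0 to 5. It gave 0 without the BTG1-labelled vehicle array 2, 1 without the BTG1-labelled vehicle array 1 or the control-labelled vehicle array 1, and 5 without the control-labelled vehicle array 2. Under prednisolone the count of 5 became 9 with the block, and 3 to 6 when arrays were left out, with 3 without the BTG1-labelled array 1 or the control-labelled array 2. The block added RARS1, FARS2 and 5 others under vehicle, and WARS2 and 3 others under prednisolone. The share over all clusters with the block was 25.5% under vehicle and 24.2% under prednisolone. FARSA and WARS1 under prednisolone passed under every setting in which they were fitted. Leaving out an array leaves a group with 1 array, which is then assumed to vary like the other groups. The replicate numbers are not stated to mark a culture or day; deviations of same-numbered arrays correlated at 0.01 to 0.59. All of these correlations were positive, and in each group 35.3% to 41.0% of all clusters lay lower on replicate 1 than on replicate 2. Because the labels do not state that the numbers pair the arrays, the block was run as an alternative only. A shared batch behind the numbers was not tested.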
